A study of Mus musculus with 22 samples.

Results

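The NF-kappaB genes and feedback targets are 9 genes, Nfkb1, Nfkb2, Rel, Rela, Relb, Nfkbia, Nfkbiz, Tnfaip3 and Icam1, out of 21938 protein-coding genes with a locus in the annotation. They were chosen by name, and a locus was the gene span with 20 kb on each side in GENCODE vM21 on the mouse build GRCm38. Every peak that touched a locus in any of the 22 libraries was used, and after merging the peaks of all libraries the 9 loci held 36 of the 104657 regions. A single library had between 33 and 49 peaks in these loci.

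Open chromatin was measured by ATAC-seq, in which a transposase cuts accessible DNA, in adipocyte nuclei from the epididymal fat of individual mice, whose background the labels give as C576BL6 and the methods of the study as C57BL/N. All animals, controls included, came from the AdipoERCre x NuTRAP cross and received tamoxifen before the diets began. The Cre recombinase is driven in adipocytes, and the reporter puts biotin on the nuclei of recombined cells so that they can be pulled out of the tissue. C (n = 3) received chow and H (n = 3) high-fat diet for 12 weeks, and both were 18 weeks old. HC (n = 3) was moved from the 12-week diet to chow for 8 weeks and was 26 weeks old, as was its control CC_s (n = 3). HH (n = 3) had 25 weeks of high-fat diet and was 31 weeks old, as was CC_l (n = 2). HHC (n = 3) was moved from the 25-week high-fat diet to chow for 8 weeks and was 39 weeks old, as was CCC (n = 2). The chow of the last 8 weeks was another product and was given to CC_s and CCC as well, so these controls differ from C and CC_l in age and in chow. The sample codes of the short and the long arm form separate series, so the duration of the diet and the library series cannot be told apart.

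The marker genes fixed for adipocytes had a promoter peak for 12 of 12 genes in all 22 libraries. Macrophage promoters had a peak for 2 to 9 of 12 genes, endothelial promoters for 1 to 10 of 10, progenitor promoters for 4 to 7 of 7, mesothelial promoters for 0 to 5 of 6 and lymphocyte promoters for 0 to 2 of 7. Cd3e, Cd4, Cd8a and Upk1b had no promoter peak in any library. HH 1 had a peak at 10 of 10 endothelial promoters, and the next highest were HHC 3 with 6, CCC 2 with 5 and HC 3 with 4. HC 3 and HHC 3 stood apart: the median peak height was 2.43 and 2.25 times the lowest peak height, against 3.67 to 8.92 in the other libraries, and the summed signal at the 12 adipocyte loci was 2293 and 1779 ppm of the library's summed peak signal against 3173 ppm or more. Libraries had 40528 to 60523 peaks that covered 128.1 to 299.5 Mb. The files give coverage sums and no read counts, so the depth of each library is unknown.

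NF-kappaB factors are dimers built from the subunits that Rela, Relb, Rel, Nfkb1 and Nfkb2 encode. In resting cells they are held in the cytoplasm, and a signal from cytokine or Toll-like receptors frees them to enter the nucleus. They then switch on inflammatory genes such as Icam1, the adhesion molecule that binds leukocytes, and also their own brakes. Nfkbia encodes the inhibitor IkappaB-alpha, Tnfaip3 the ubiquitin-editing enzyme A20, which dampens signalling upstream of the factors, and Nfkbiz the nuclear protein IkappaB-zeta, which helps some target genes and restrains others. In fat, this pathway is known for its part in the inflammation that accompanies obesity.

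The promoters below are those of 4 members with a kappaB match and of Icam1, the member whose region was called over both durations. The first 4 had a peak at the promoter in every library and Icam1 in 9 of 22. They are RefSeq promoter windows of GRCm38.p6, 250 bases before to 50 bases after a start site, printed in the direction of the gene. Capitals mark matches on either strand to the kappaB consensus, the 10-base motif that NF-kappaB dimers bind. The form searched was GGG, a purine, any base, A or T, a pair of pyrimidines and CC.
Nfkbia (chr12:55492598-55492897, minus strand): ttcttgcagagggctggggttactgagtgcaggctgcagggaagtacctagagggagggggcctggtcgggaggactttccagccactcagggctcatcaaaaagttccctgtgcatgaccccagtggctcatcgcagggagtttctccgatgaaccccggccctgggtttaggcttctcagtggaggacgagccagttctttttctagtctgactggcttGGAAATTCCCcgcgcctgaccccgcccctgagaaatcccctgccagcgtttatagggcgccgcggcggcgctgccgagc
Nfkb2, first promoter (chr19:46304487-46304786, plus strand): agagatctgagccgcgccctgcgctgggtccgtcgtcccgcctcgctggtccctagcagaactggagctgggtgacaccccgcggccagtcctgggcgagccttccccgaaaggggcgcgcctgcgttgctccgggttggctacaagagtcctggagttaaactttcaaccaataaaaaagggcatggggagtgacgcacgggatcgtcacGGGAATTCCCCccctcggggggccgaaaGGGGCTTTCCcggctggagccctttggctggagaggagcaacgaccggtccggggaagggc
Rel (chr11:23770920-23771219, minus strand): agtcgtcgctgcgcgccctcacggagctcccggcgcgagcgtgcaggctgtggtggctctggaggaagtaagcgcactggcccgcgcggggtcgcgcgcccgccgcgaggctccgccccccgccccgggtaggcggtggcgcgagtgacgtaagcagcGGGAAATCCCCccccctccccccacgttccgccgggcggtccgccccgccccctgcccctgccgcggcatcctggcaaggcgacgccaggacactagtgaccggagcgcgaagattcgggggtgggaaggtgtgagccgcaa
Tnfaip3, first promoter (chr10:19015361-19015660, minus strand): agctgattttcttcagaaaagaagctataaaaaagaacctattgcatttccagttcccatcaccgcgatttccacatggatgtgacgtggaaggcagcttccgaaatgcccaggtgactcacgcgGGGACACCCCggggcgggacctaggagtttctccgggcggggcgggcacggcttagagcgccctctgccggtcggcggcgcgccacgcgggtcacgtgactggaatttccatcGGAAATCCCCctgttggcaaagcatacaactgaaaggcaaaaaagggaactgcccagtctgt
Icam1 (chr9:21015690-21015989, plus strand): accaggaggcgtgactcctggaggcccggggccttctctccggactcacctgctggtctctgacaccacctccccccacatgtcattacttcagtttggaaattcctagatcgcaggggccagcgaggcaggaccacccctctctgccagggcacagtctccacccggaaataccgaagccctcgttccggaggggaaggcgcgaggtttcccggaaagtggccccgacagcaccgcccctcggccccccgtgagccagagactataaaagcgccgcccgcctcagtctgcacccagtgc
The RefSeq table held 9 promoters for 6 of the 9 genes, and Nfkb1, Relb and Nfkbiz were not among them. A kappaB match was found in promoters of 4 of the 6 genes, in Nfkbia at -29 to -20 from the start site, in Rel at -92 to -82, in Nfkb2 at -39 to -29 and -11 to -2, and in Tnfaip3 at -125 to -116 and -12 to -3. Where neighbouring capitals form a longer run, 2 matches overlap. Rela and Icam1 had no match to this form in these windows. Sites that depart from the form, for example in its GGG, were not searched for, so their absence is not shown. Further matches were in the second Nfkb2 promoter at -236 to -227 and 10 to 19, and in the third at -225 to -216. These 2 windows overlap, and the match at 10 to 19 of the second is the same site as that of the third. It counts for both promoters below. In all, 6 of the 9 promoters held a match, and 4.51% of all 32851 RefSeq promoters did. With any base allowed at the sixth place, a form added once the data were known, 6 of the 9 promoters held a match as well, and 8.46% of all promoters did. The AP-1 motif TGANTCA was present in 1 Tnfaip3 and 1 Nfkb2 promoter and in 7.81% of all promoters, and the GC box GGGCGG in promoters of 6 of the 6 genes and in 35.7% of all promoters. Both were searched on both strands, and the AP-1 and GC-box matches are not in capitals.

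Open chromatin was present at the start of 8 of the 9 genes in every library, whatever the diet. The promoters of Nfkb1, Nfkb2, Rel, Rela, Relb, Nfkbia, Nfkbiz and Tnfaip3, taken as 2000 bp on each side of a start site, had a peak in 22 of 22 libraries, which was true of 43.6% of all protein-coding promoters. Icam1 was the exception, with a promoter peak in 9 of 22 libraries. Nfkbia had the most open locus per length, with a mean signal of 3.16 ppm per kb, the 96.1th percentile of all coding loci. Peaks covered 58.1% of its locus on average, against a median of 11.4% over all coding loci. Tnfaip3 followed at 1.90 ppm per kb, and Relb, Rela and Nfkbiz lay between 1.56 and 1.64. Nfkb2 had 1.3 ppm per kb and Icam1 0.986. Rel and Nfkb1, 2 long loci, had the lowest signal per length at 0.728 and 0.653 ppm per kb, still above the median of all coding loci, 0.494.

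The peaks differed in shape between the members. At Nfkb2, Rel and Nfkbiz the promoter peak was narrow, with a median width of 2327 to 3668 bp, and its highest point lay within 500 bp of the start site in 22 of 22 libraries. At Nfkbia the median width was 17260 bp. At Tnfaip3 the median width was 11760 bp and the median highest point lay 6199 bp into the gene. The highest point at Relb lay 589 to 892 bp into the gene in all libraries. Relb also had the tallest promoter peak relative to its own library, with a median height 3.93 times that of the library's median peak, and Nfkb1 the least tall of the 8, at 1.12 times.

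The merged region over each promoter gives the position of these peaks. It was chr3:135685761-135694913 for Nfkb1, chr19:46299559-46317612 for Nfkb2, chr11:23766969-23776920 for Rel, chr19:5633855-5657190 for Rela and chr7:19616183-19658208 for Relb. It was chr12:55451558-55505472 for Nfkbia, chr16:55835161-55841651 for the first start site of Nfkbiz and chr16:55807168-55826499 for start sites farther into that gene, chr10:18984941-19021214 for Tnfaip3 and chr9:20997639-21018118 for Icam1. All of these overlap UTRs as well as a promoter. The Nfkb2 region also covers the promoter of the neighbour Psd, and the Icam1 region that of Mrpl4. Other coding genes lie in the loci of all members except Nfkbia and Tnfaip3, so the locus signal of the others can include peaks of a neighbour.

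After 12 weeks of high-fat diet, chromatin in the region from the Mrpl4 start to the Icam1 start and at a second start site of Nfkb1 was more open in H than in C, and the loci of Rel and Relb carried more signal. No member promoter passed the test. Tnfaip3, the A20 gene, had a log2 difference of -0.48 that did not pass the correction. The comparison of H with C asks what obesity of this duration did to adipocyte chromatin. In H every library had a lower ratio of median to lowest peak height (4.70 to 6.40) than every C library (6.82 to 8.92), and mesothelial promoters had a peak for 0 to 1 of 6 genes in H and 2 to 4 in C. The part of these in the results was not tested.

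Of 22 member regions tested with limma, 2 were called in H against C, and both were higher in H. A call needed a log2 difference beyond 1 in either direction with an adjusted p below 0.05. Over all 30840 regions tested, 8.28% were called and 4.93% were called higher. An unadjusted p under 0.05 was reached by 10 of 22 member regions and by 10752 of 30840 regions. The Icam1 region had a log2 signal, rank-mapped to a common scale, of 15.20, 15.68 and 15.90 in the C libraries and of 16.98, 17.23 and 16.22 in H. The groups did not overlap. The difference was 1.22 (SE 0.30), adjusted p = 0.0309. Leaving out any library but H 3 ended the call, with adjusted p of 0.0585 to 0.12. With the maximum in place of the summed signal the difference was 0.04, and the highest peak of the region started over 10 kb upstream of Icam1, next to the Mrpl4 start, in 20 of 22 libraries.

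The other region called lies in Nfkb1, the gene of the p105 and p50 subunits, at chr3:135667394-135685083, over a second annotated start site, 6464 bp into the gene at its nearest edge. Its log2 signal was 14.70, 14.10 and 14.01 in C, where 14.01 is the floor given to regions below the common rank, and 16.02, 15.93 and 15.45 in H. Every H library was above every C library, and the difference was 1.53 (SE 0.29), adjusted p = 0.0145. The same region was at 15.25, 15.12 and 14.82 in CC_s at 14.97 and 15.34 in CC_l, and at 14.01, the floor with no peak, and 15.07 in CCC. All 3 C libraries were below all CC_s and CC_l libraries, and CCC 1 was as low as C 3. In HH it was at 15.90, 14.26 and 14.21, which overlapped CC_l. With the maximum signal the H minus C difference was 0.52, adjusted p = 0.145. Leaving out C 2, C 3, H 1 or H 2 gave adjusted p of 0.0502 to 0.0871.

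**Figure D1:**
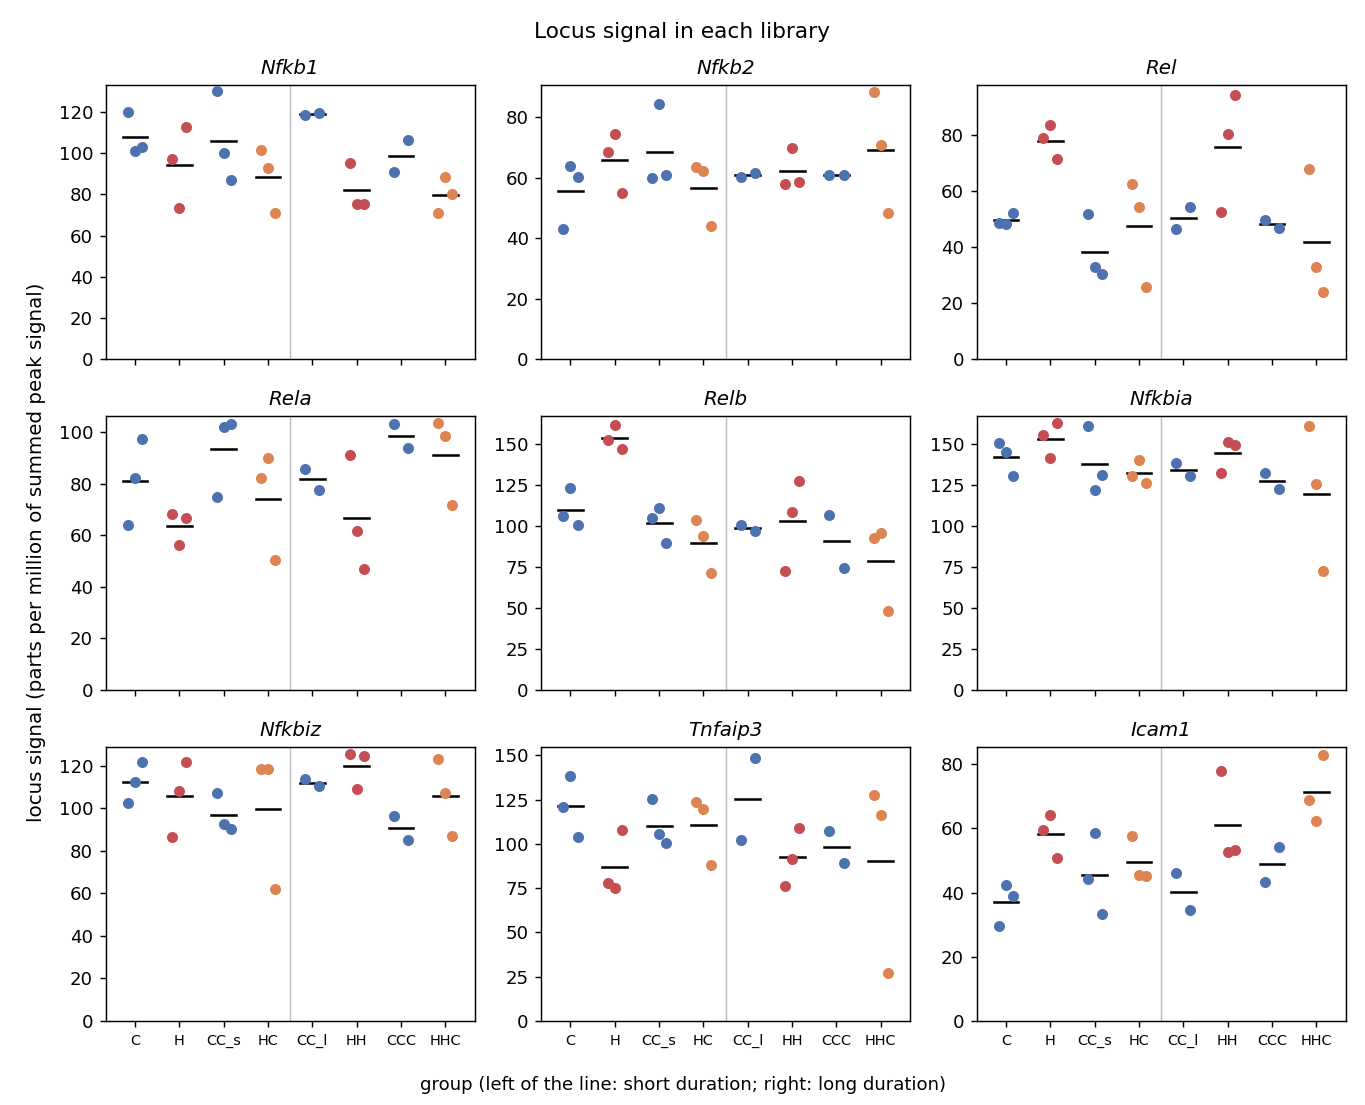
Signal at each of the 9 loci in every library, in ppm of the library's summed peak signal; points are libraries, black bars group means, blue controls, red high-fat diet and orange weight loss. The 3 H libraries lie above the 3 C libraries at Rel, Relb and Icam1, and HHC 3 is the lowest point at Tnfaip3 with 27.2 ppm. How many of all loci separate in this way was not counted.

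At the level of whole loci, 2 of 9 members were called in H against C, both higher, where 11.3% of 17296 coding loci were called and 5.63% were called higher. An unadjusted p under 0.05 was reached by 4 of 9 members and by 5380 of 17296 coding loci. How many of all loci had no overlap between H and C was not counted. Rel encodes c-Rel, a subunit best known from lymphocytes. Its locus had 48.6, 48.0 and 52.0 ppm in C and 78.8, 83.4 and 71.3 ppm in H, with no overlap. The log2 difference was 0.64 (SE 0.14), adjusted p = 0.0273. With the replicate number as a block the adjusted p was 0.0577, and with all 22 libraries in 1 fit, where the loci called fell from 1950 to 336 of 17296, it was 0.401. With the maximum signal the difference was 0.29, adjusted p = 0.416. Over the gene span alone it was 0.13, and leaving out C 2, C 3, H 1 or H 2 gave adjusted p of 0.053 to 0.109.

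Relb encodes the partner of p52 in the non-canonical pathway. Its locus had 106.1, 123.3 and 100.3 ppm in C and 152.3, 161.3 and 146.9 ppm in H, also without overlap. The log2 difference was 0.48 (SE 0.13), adjusted p = 0.0484. The adjusted p was 0.0695 with the block, 0.0892 without the trend, 0.07 with the 30000 strongest peaks and 0.375 with all 22 libraries in 1 fit. With the maximum signal the difference was 0.21, adjusted p = 0.454, and over the gene span it was 0.55, adjusted p = 0.17. With 5 kb on each side in place of 20 kb it was 0.28, and with 50 kb 0.20. Leaving out any 1 of the 6 libraries ended the call, with adjusted p of 0.0717 to 0.158. The Relb promoter region moved with the locus, from 17.81 to 18.02 in C to 18.21 to 18.56 in H on the log2 scale, a difference of 0.53 (SE 0.13), adjusted p = 0.0316, under the limit of 1 used for calls.

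Of the remaining loci, Icam1 had 29.6, 42.3 and 39.0 ppm in C and 59.4, 64.3 and 50.7 ppm in H. All H libraries were above all C libraries, and the log2 difference of 0.65 (SE 0.19) had an adjusted p of 0.0626. Tnfaip3 had 121.0, 138.5 and 103.7 ppm in C and 78.1, 75.3 and 107.9 ppm in H. The groups overlapped by H 3 and C 3, and the log2 difference was -0.48 (SE 0.18), adjusted p = 0.116. Nfkbia, Nfkbiz, Nfkb1, Nfkb2 and Rela had log2 differences between -0.33 and 0.25, with adjusted p of 0.263 or more.

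No member promoter was called in H against C by limma, of 8 tested, and 1 had an unadjusted p under 0.05, where 2686 of 12705 promoters did. Over all promoters 1.98% were called. The promoter of Rel had the smallest p, with a log2 difference of 0.42 (SE 0.16), adjusted p = 0.205.

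After 25 weeks of high-fat diet no member was called in HH against CC_l. Icam1 and Rel had the largest positive locus differences, at 0.58 (SE 0.26) and 0.54 (SE 0.28) on the log2 scale, and Relb had 0.02 (SE 0.26). Limma called 0 of 22 member regions and 0 of 9 loci, with 5 regions and 1 locus at an unadjusted p under 0.05. Over all features 4604 of 33619 regions and 2275 of 17650 loci had such a p. No member region reached an unadjusted p under 0.01 with the same limit on the difference, and no member locus an unadjusted p under 0.01, which 2.68% of all regions and 3.93% of all loci did. The Icam1 region had 15.86 and 15.89 in CC_l and 17.36, 16.41 and 16.59 in HH, with no overlap and a log2 difference of 0.91 (SE 0.32), adjusted p = 0.298. The member region with the smallest p was at the 3' end of Nfkb1, chr3:135561176-135596005, at 18.08 and 17.99 in CC_l and 17.19, 17.34 and 17.29 in HH. All HH libraries were below both CC_l libraries there, with a log2 difference of -0.76 (SE 0.14), adjusted p = 0.162. Over the whole Nfkb1 locus HH had 95.01, 75.2 and 75.4 ppm against 118.7 and 119.6 ppm, a log2 difference of -0.54 (SE 0.18), adjusted p = 0.309.

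With both durations in 1 model, Icam1 was the only member with a called region under obesity, 1 of 27 tested, where 3.13% of 49133 regions were called and 1.83% were called higher. The averaged log2 difference of the Icam1 region was 1.06 (SE 0.28), adjusted p = 0.0224. Without HH 1, the library with a peak at every endothelial promoter, it was 0.92, adjusted p = 0.0454, and fell under the limit of 1. Leaving out C 1, H 2, CC_l 1 or CC_l 2 gave adjusted p values of 0.0561 to 0.0784.

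No whole locus of a member was called over both durations with limma, 0 of 9 against 4.21% of 19405 coding loci (2.27% called higher). Over all coding loci 3667 had an unadjusted p under 0.05, and 3 of the 9 members did. Those were Icam1, with a log2 difference of 0.61 (SE 0.18) and adjusted p = 0.0614, Rel, with 0.59 (SE 0.26) and adjusted p = 0.234, and Nfkb1, with -0.38 (SE 0.15) and adjusted p = 0.178. The median of all loci was -0.09, and the median over the 9 members was 0.10, with 5 higher and 4 lower.

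Member promoters were called 0 of 9 times over both durations, where 1.29% of 14845 promoters were called. The smallest unadjusted p belonged to Nfkb2, the gene of p100 and p52, with a log2 difference of 0.51 (SE 0.18), adjusted p = 0.181. In its promoter H had 16.68, 17.04 and 16.57 against 16.02, 16.41 and 16.47 in C, and HH had 17.30, 16.67 and 16.72 against 16.22 and 16.43 in CC_l. Every library on the diet was above every control of its age. Rel followed at 0.58 (SE 0.23), adjusted p = 0.240. The Tnfaip3 promoter, at -0.30, and the Rela promoter, at -0.33, were the 2 with a negative difference.

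No member differed between the durations in limma's test of the difference itself, for obesity or for weight loss. At adjusted p under 0.05, this test called 0.0183% and 0.00407% of all regions and 0.0% and 0.0% of all loci. Over all features 2126 and 1744 of 49133 regions and 302 and 266 of 19405 loci had an unadjusted p under 0.05. In each of the 2 tests 1 of 27 member regions and 0 of 9 loci did. For obesity it was the second-start region of Nfkb1, with a difference of -1.89 (SE 0.70) and an adjusted p of 1.

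The signal that set the diet groups apart at Icam1 sat upstream of the gene, over the end of Mrpl4 and the sequence between it and Icam1. Mrpl4 spans -13247 to -7146 bp. From -9500 to -2500 bp of the start site, C had no peak in 3 libraries, while H had 12.5, 19.6 and 9.90 ppm. HH had 13.3, 12.6 and 12.8 ppm, and CC_l 0 and 4.67 ppm. In CC_s the stretch had 4.70, 7.32 and 0 ppm and in CCC 0 and 5.45 ppm. So all 6 libraries on the diet had a peak there and 4 of 10 control libraries did. The stretch was picked after the peaks had been seen and is described with no test. In H 2 a single peak joins the stretch to the Mrpl4 start, and its signal was divided by length.

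**Figure D2:**
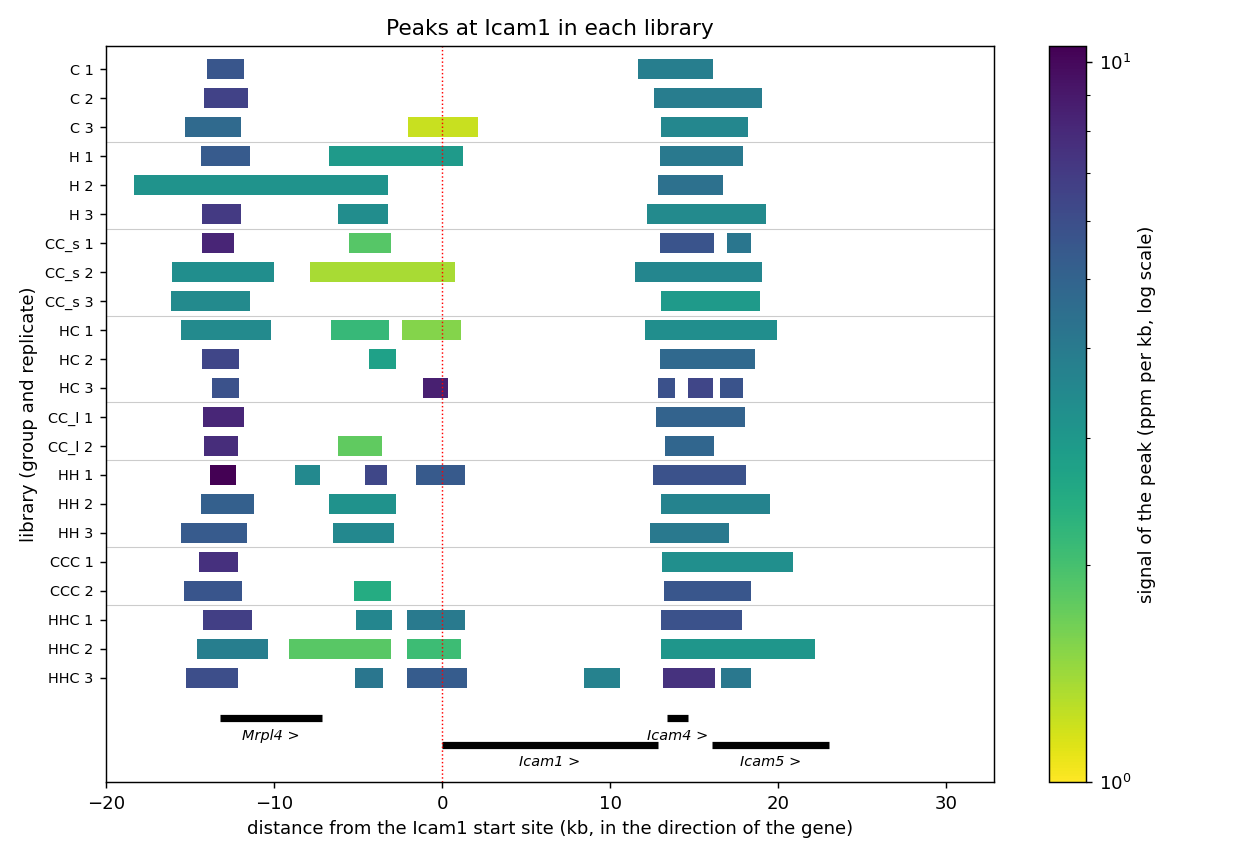
Peaks at Icam1 in each of the 22 libraries, by distance from the Icam1 start site in kb; colour gives signal per kb on a log scale, and black bars below are genes. Peaks near the Mrpl4 start and past the 3' end of Icam1 are in all 22 libraries, the upstream stretch is filled in all H, HH and HHC libraries and in none of C, and the start site has a peak in 9.

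Other parts of the Icam1 locus had a peak in every library. The Mrpl4 start, at -16000 to -10000 bp, had a peak in 22 libraries, with group means of 14.1 to 18.7 ppm. The 3' end of Icam1 and the start of Icam4 and Icam5 had a peak in 22 libraries with group means of 20.2 to 26.7 ppm. The Icam1 start itself had a peak in fewer libraries, with 9.52 ppm in H 1 and 0 in H 2 and H 3, and 4.25 ppm in C 3 and 0 in C 1 and C 2. In H 1 and in CC_s 2, with 3.74 ppm, a single peak joins the start site to the upstream stretch, and its signal was divided by length.

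The highest points of the peaks in the upstream stretch fell at 2 places. In 10 libraries they lay at -4222 to -3779 bp, with a median of -3972 bp, and in 5 libraries, H 1, H 2, CC_s 2, HH 2 and HH 3, at -5456 to -5371 bp, with a median of -5412 bp. These are the 300 bases around each place in GRCm38, read from the reference genome, to show where the peaks of this stretch were highest. The nearer place was the highest point in 2 of the 6 libraries on the diet, and the farther place in 4.
Icam1 upstream, nearer place (chr9:21011863-21012162, plus strand): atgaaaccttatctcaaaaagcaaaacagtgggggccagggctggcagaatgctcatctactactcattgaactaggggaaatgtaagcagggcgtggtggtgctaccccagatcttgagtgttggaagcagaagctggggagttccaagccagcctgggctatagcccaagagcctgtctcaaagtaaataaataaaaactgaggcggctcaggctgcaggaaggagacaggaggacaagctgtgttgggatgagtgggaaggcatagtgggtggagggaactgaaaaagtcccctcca
Icam1 upstream, farther place (chr9:21010424-21010723, plus strand): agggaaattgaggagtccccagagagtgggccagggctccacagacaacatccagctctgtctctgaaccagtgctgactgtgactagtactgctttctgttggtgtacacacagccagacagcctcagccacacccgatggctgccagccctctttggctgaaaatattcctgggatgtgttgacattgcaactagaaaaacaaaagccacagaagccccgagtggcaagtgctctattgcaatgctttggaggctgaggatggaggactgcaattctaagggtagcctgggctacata
Neither window holds a match to the kappaB form with A or T at the sixth place, to the AP-1 motif or to the GC box, so no letters are in capitals. With any base at the sixth place the nearer window holds 1 kappaB match and the farther window 0. The reference marks 47.7% of the bases of the nearer window and 18.3% of the farther window as repeats.

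At Rel the result at the start site depended on the scale, and windows away from it held more ppm in H than in C. The window from 2000 bp before to 2500 bp after the start site had 25.0, 35.6 and 33.6 ppm in C and 24.5, 33.3 and 26.1 ppm in H, which overlapped. On the rank-mapped log2 scale the promoter had 16.49, 16.57 and 16.42 in C and 16.84, 16.80 and 17.10 in H, without overlap. Around the 3' end of the gene, 32000 to 39000 bp from the start site, H had 11.4, 17.3 and 12.0 ppm and C had 0, 0 and 5.10 ppm. HH had 0, 13.5 and 12.5 ppm and CC_l 6.66 and 4.43 ppm there. About 4 kb upstream, at -6000 to -2500 bp, HH had 19.0, 15.7 and 8.24 ppm and H had 0, 7.17 and 16.7 ppm. In that window C had none in 3 libraries, CC_l had 0 and 3.98 ppm, CC_s had 13.7, 0 and 0 ppm and CCC had none in 2. The CC_s library with signal there lay within the range of the libraries on the diet. In H 3, HH 1, HH 2 and CC_s 1 this signal belonged to the promoter peak, which reached past -2500 bp and was divided by length. The start window of these libraries therefore holds only part of that peak, which had 45.9 ppm in H 3. A window at -14000 to -9500 bp had 11.7, 12.5 and 13.3 ppm in H and 6.36, 6.32 and 10.1 ppm in C, without overlap. It had 0, 7.43 and 9.76 ppm in HH and 6.68 and 8.87 ppm in CC_l, which overlapped, so all HH libraries lay below all H libraries. These windows were also picked after the peaks had been seen.

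**Figure D3:**
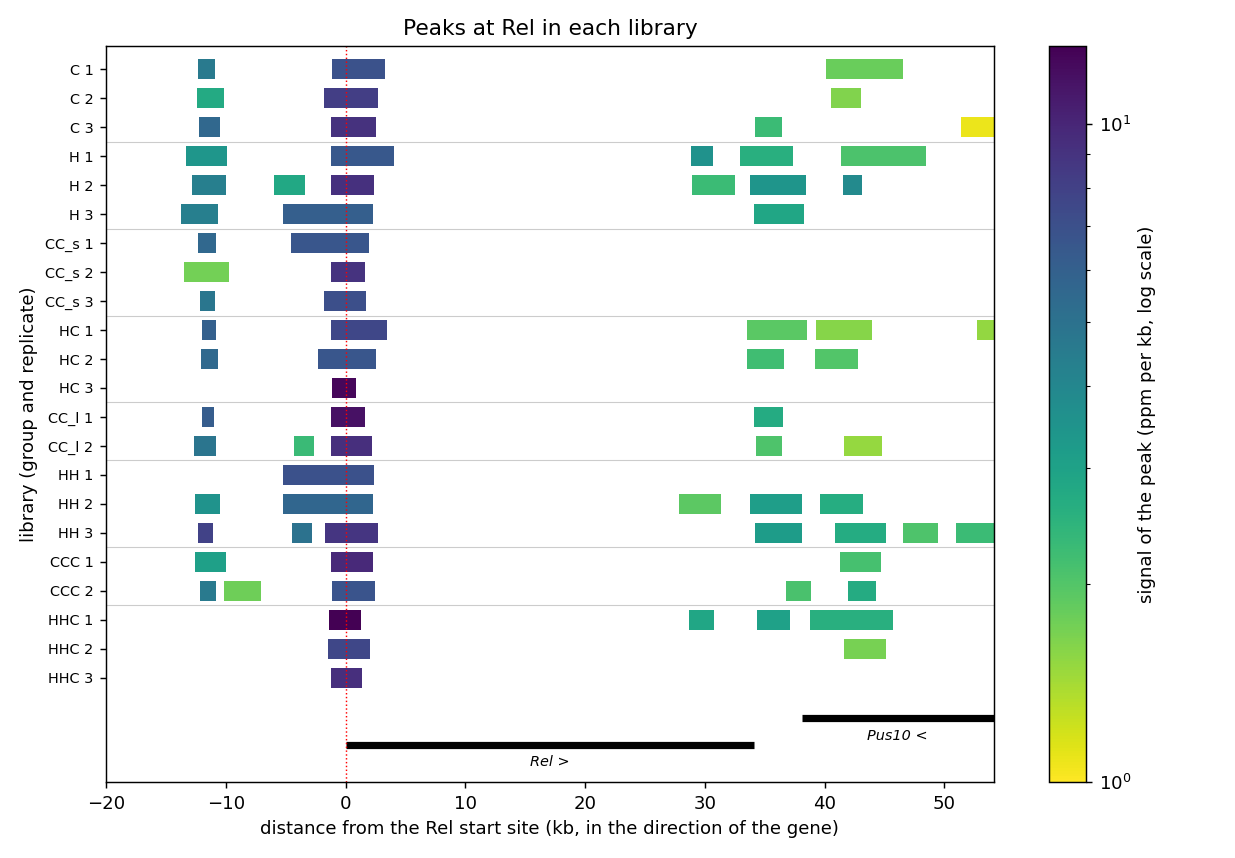
Peaks at Rel in each of the 22 libraries, by distance from the Rel start site in kb; colour gives signal per kb on a log scale, and black bars below are genes. The promoter peak is in all 22 libraries; peaks about 4 kb upstream are in 7 libraries, 5 of them H or HH, and peaks between 32 and 39 kb are in 12.

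After weight loss no member was called, and Icam1 had the largest positive difference of the 9 loci over both durations, 0.34 (SE 0.18) on the log2 scale, adjusted p = 0.276. The comparisons of HC with CC_s and of HHC with CCC ask whether differences seen on the diet were still there 8 weeks after it. Limma called 0 of 21 member regions and 0 of 9 loci in HC against CC_s, and 0 of 23 regions and 0 of 9 loci in HHC against CCC. Over all features, 3563 of 29699 regions and 1496 of 17325 loci had an unadjusted p under 0.05 in the first comparison. In the second, 2011 of 32736 regions and 417 of 17705 loci did. Among the members these were 1 region and 0 loci in the first and 3 regions and 0 loci in the second. None met the unadjusted limits given above, which 2.54% of regions and 2.08% of loci met in the first comparison and 0.706% and 0.463% in the second.

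Icam1 in HHC had 68.8, 62.3 and 82.7 ppm at its locus against 43.4 and 54.2 ppm in CCC. All 3 HHC libraries were above both controls, and the log2 difference was 0.54 (SE 0.34), adjusted p = 0.981. In HC it had 57.7, 45.6 and 45.3 ppm against 44.2, 58.6 and 33.4 ppm in CC_s, which overlapped, and the log2 difference was 0.15 (SE 0.31), adjusted p = 0.849. The upstream stretch had a peak in 3 of 3 HHC libraries, with 7.72, 11.2 and 6.79 ppm, and in 2 of 3 HC libraries, with 7.53 and 4.40 ppm. Of the controls, CCC had a peak in 1 of 2 libraries, with 5.45 ppm, and CC_s in 2 of 3, with 4.70 and 7.32 ppm. HC and CC_s overlapped.

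The start site of Icam1 had a peak in 3 of 3 HHC libraries, with 13.5, 6.58 and 18.5 ppm, and in 0 of 2 CCC libraries. In HC it had 4.84, 0 and 12.7 ppm and in HH 16.1, 0 and 0 ppm. The highest values were in HHC 3, HH 1, HHC 1 and HC 3. These libraries had a peak at 6, 10, 2 and 4 of 10 endothelial promoters, in that order, and at 6, 7, 9 and 5 of 12 macrophage promoters. Endothelial cells and macrophages are both known to express Icam1. CCC 2, with 5 endothelial promoters, had no peak at the start site. The part of other cell types in these values was not tested.

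Over both durations, limma called 0 of 27 member regions and 0 of 9 loci after weight loss, against 0.983% of all regions and 1.39% of all loci. An unadjusted p under 0.05 was reached by 4 member regions and 0 member loci, and by 8080 of 49133 regions and 4104 of 19405 loci. The Icam1 region had a log2 difference of 0.72 (SE 0.28), adjusted p = 0.194, and the region of Nfkbiz over its later start sites one of 0.55 (SE 0.15), adjusted p = 0.0713. Without HC 3 and HHC 3, these were 0.46, adjusted p = 0.448, and 0.46, adjusted p = 0.114. The Nfkbiz region had 17.62, 17.42 and 18.16 in HHC against 16.95 and 17.11 in CCC, and 17.43, 17.55 and 17.38 in HC against 17.34, 16.89 and 16.97 in CC_s. Each library after weight loss was above each control of its age. Leaving out HC 3 and HHC 3 called 0 regions and 0 loci as well.

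The smallest p after weight loss belonged to a region at the edge of the Rela locus, chr19:5657683-5932414, which is 274732 bp long, lies downstream of Rela and holds the promoters of 14 other genes. It was lower by 0.72 on the log2 scale (SE 0.12), adjusted p = 0.0076, under the limit for a call, and by 0.58 without HC 3 and HHC 3, adjusted p = 0.0183. Most of it lies outside the Rela locus. It also had the smallest p of the member regions in HC against CC_s, with a difference of -0.84 (SE 0.18), adjusted p = 0.148. In HHC against CCC the smallest p was in a region upstream of Rel, with a difference of -1.01 (SE 0.29), adjusted p = 0.753. The Rela promoter region had 17.51, 17.71 and 16.91 in HC against 17.33, 17.74 and 17.85 in CC_s, and 17.63, 17.77 and 17.91 in HHC against 17.71 and 17.72 in CCC, with overlap in both.

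Among the brakes, the loci of Nfkbia, Nfkbiz and Tnfaip3 had averaged log2 differences of -0.11, 0.10 and -0.20 after weight loss, against a median of -0.18 over all loci. Without HC 3 and HHC 3 these were 0.071, 0.32 and 0.23, so the sign of Nfkbia and Tnfaip3 turned. Leaving out HHC 3 alone gave 0.0542 for Nfkbia and 0.15 for Tnfaip3, whose locus had 27.2 ppm in HHC 3 against 127.5 and 116.1 ppm in HHC 1 and HHC 2. Rel, which was higher in H, had 62.3, 54.2 and 25.6 ppm in HC against 51.6, 32.7 and 30.2 ppm in CC_s. In HHC it had 67.9, 32.9 and 24.0 ppm against 49.6 and 46.7 ppm in CCC. The groups overlapped in both arms, and the 95% interval of the averaged log2 difference ran from -0.60 to 0.51. For Relb it ran from -0.61 to 0.18. Without HC 3 and HHC 3 the differences of Rel and Relb were 0.31 and 0.0162, where with all libraries both were negative. No member promoter was called, 0 of 9 against 0.128% of all promoters, and none had an unadjusted p under 0.05, where 2169 of 14845 promoters did.

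**Figure D4:**
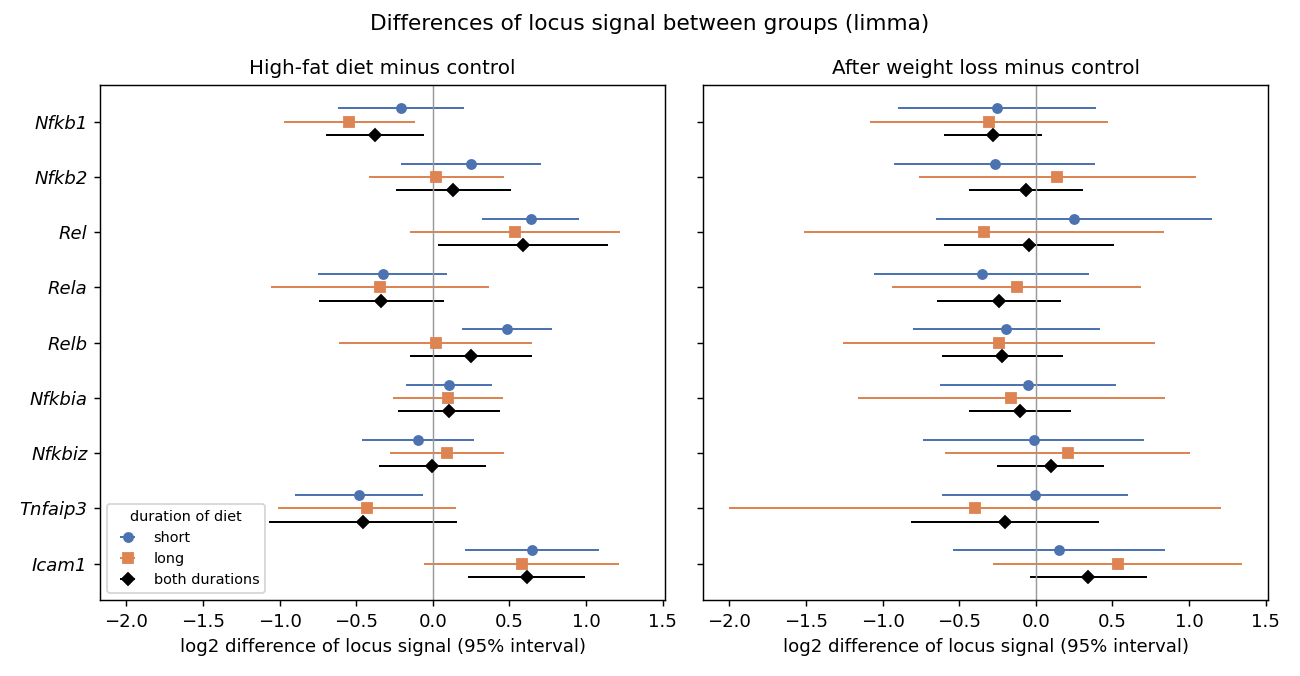
Log2 difference of locus signal between diet or weight loss group and its control of the same age for the 9 members, with 95% intervals from limma; circles are the short arm, squares the long arm and diamonds both durations. Under the diet Icam1 and Rel lie to the right of 0 in both arms and Nfkb1, Rela and Tnfaip3 to the left; after weight loss all 9 intervals over both durations include 0.

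Between control groups of different age, limma called no member: 0 of 22 regions and 0 of 9 loci in CC_s against C, and 0 of 22 and 0 of 9 in CCC against CC_l, where 0.0% and 0.0% of all regions and 0.0% and 0.0% of all loci were called. At an unadjusted p under 0.05 there were 1 and 2 member regions and no locus. Over all features 2374 of 30390 and 3172 of 31162 regions and 1023 of 17231 and 1289 of 17362 loci had such a p. In CCC against CC_l the smallest p was in a region upstream of Nfkbiz, with a log2 difference of 0.93 (SE 0.33), adjusted p = 0.479. The single region in CC_s against C was the second-start region of Nfkb1, with a log2 difference of 0.79 (SE 0.26), adjusted p = 0.561.

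The length of each locus covered by peaks separated the members further. Under the diet, the covered length was higher at Icam1 and lower at Nfkb1 and Rela in an exact test before correction over all loci, and not after it. At Icam1 the covered length was 6.68, 9.03 and 12.7 kb in C and 15.9, 19.0 and 12.3 kb in H, and 7.67 and 7.56 kb in CC_l and 12.8, 13.6 and 12.3 kb in HH. Over both durations the difference was 5.76 kb, two-sided exact permutation p = 0.01 and p = 0.155 after Benjamini-Hochberg adjustment over all loci. Within the gene span it was 0.0461 kb.

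Nfkb1 had 37.0, 30.8 and 43.6 kb in C and 32.6, 21.2 and 29.2 kb in H, and 24.9 and 35.2 kb in CC_l against 22.6, 22.5 and 15.6 kb in HH. The difference was -9.64 kb, exact p = 0.01, adjusted p = 0.155. Divided by the covered length of each library it had an exact p of 0.11. Without CC_l 2 the exact p was 0.075.

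Rela had a difference of -5.85 kb, exact p = 0.025, adjusted p = 0.198. Leaving out C 3, H 2, H 3, CC_l 1 or CC_l 2 gave an exact p of 0.06 to 0.0875. With the 30000 strongest peaks of each library its exact p was 0.13. Rel, with a difference of 7.65 kb, and Tnfaip3, with -6.60 kb, had an exact p of 0.05, at the limit, and an adjusted p of 0.262. The smallest p that 200 relabellings within the durations allow is 0.005. So 3 of 9 members had an exact p under 0.05, where 17.8% of 18900 coding loci did. After weight loss 0 of 9 did, where 7.54% of all loci did, and the smallest exact p was 0.115, for Relb, whose covered length differed by -10.4 kb.

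**Figure D5:**
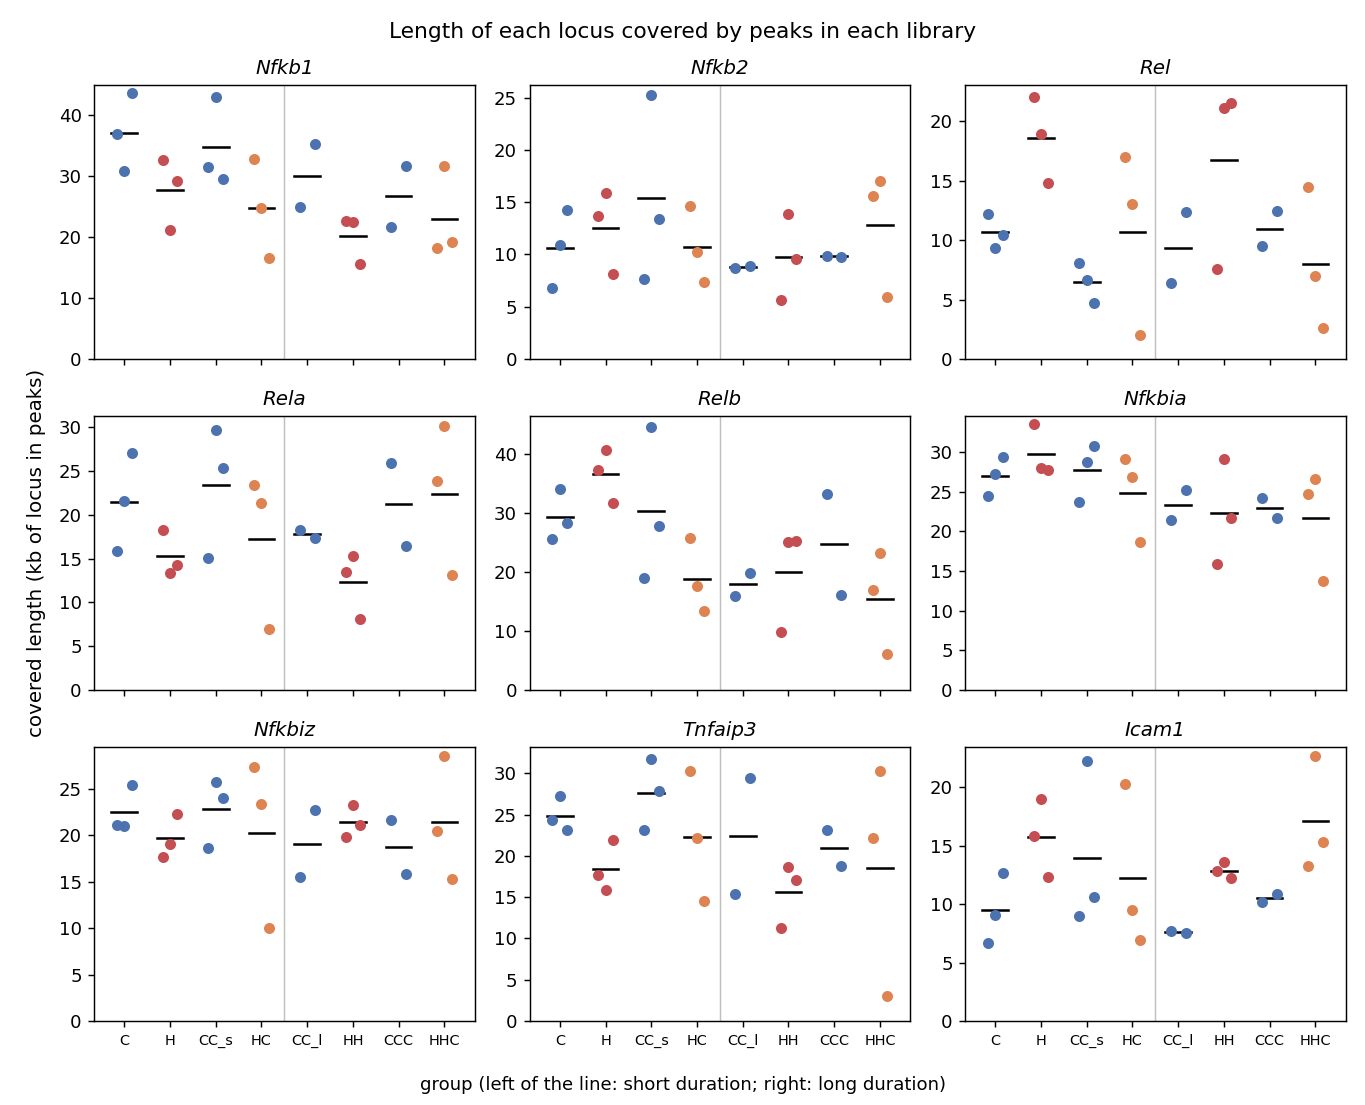
Length of each locus covered by peaks in every library, in kb; points are libraries, black bars group means, blue controls, red high-fat diet and orange weight loss. Icam1 is covered over 12.3 to 13.6 kb in HH and 7.56 to 7.67 kb in CC_l, and HHC 3 has the shortest covered length at Tnfaip3.

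The rest of the pathway was followed in a list of 62 genes, of which 61 had a locus tested. Over both durations 1 was called under the diet, where 4.21% of all loci were, and 2 after weight loss, where 1.39% of all loci were. The list's median log2 difference was -0.09 and -0.20, against -0.09 and -0.18 over all loci. By role, the median under the diet was -0.10 for 18 receptors and adaptors, -0.09 for 10 kinases, -0.03 for 12 other inhibitors and -0.12 for 21 other inducible targets.

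Tbk1, an IkappaB kinase relative that acts in innate immune signalling, was the pathway gene called under the diet. Its locus had 84.8 ± 14.8 ppm in H against 38.3 ± 10.6 ppm in C (SD, n = 3 each), and 82.9 ± 17.5 ppm in HH (n = 3) against 25.1 ± 2.79 ppm in CC_l (n = 2). The ranges did not overlap in either arm, and the log2 difference was 1.41 (SE 0.27), adjusted p = 0.0066, with adjusted p of 0.0071 to 0.0471 as each library was left out. Traf3, an adaptor that restrains the non-canonical pathway, had 0.99 (SE 0.28), adjusted p = 0.0503, and 1.21, adjusted p = 0.0158, without HH 3. Leaving out any other library kept Traf3 uncalled, with adjusted p of 0.054 to 0.195. The control group CCC had 24.46 to 26.45 ppm at Traf3, within the 19.29 to 30.84 ppm of H. Vcam1, like Icam1 an adhesion molecule for leukocytes, had 1.06 (SE 0.31), adjusted p = 0.0572, and 1.17, adjusted p = 0.04995, without HH 1. With any other library left out, Vcam1 stayed uncalled, with adjusted p of 0.07 to 0.189. The Vcam1 locus had 39.3 to 48.6 ppm in H against 15.6 to 24.4 ppm in C, and 35.5 to 57.6 ppm in HH against 23.6 to 24.3 ppm in CC_l. After weight loss the difference of Vcam1 was 0.60 (SE 0.31), adjusted p = 0.266, with all libraries and 1.05 (SE 0.22), adjusted p = 0.0294, without HC 3 and HHC 3. Without CCC 2 alone it was 0.34, adjusted p = 0.536. That of Tbk1 was 0.46, adjusted p = 0.310, with all libraries and 0.81, adjusted p = 0.0552, without HC 3 and HHC 3. Leaving out CCC 2 gave 0.25, adjusted p = 0.610, for Tbk1, leaving out HHC 1 gave 0.29, adjusted p = 0.443, and leaving out HHC 3 gave 0.71, adjusted p = 0.125. As each library was left out, no fit called Vcam1 or Tbk1 after weight loss, with adjusted p of 0.144 or more and 0.125 or more.

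Il1r1, the receptor of interleukin-1, was called lower after weight loss. It had 91.4 ± 33.4 ppm in HC against 221.7 ± 19.2 ppm in CC_s (n = 3 each), and 87.0 ± 24.0 ppm in HHC (n = 3) against 138.8 ± 54.0 ppm in CCC (n = 2). The log2 difference was -0.997 (SE 0.21), adjusted p = 0.0265, and the ranges overlapped between HHC and CCC. Without HC 3 and HHC 3 it was -0.71, adjusted p = 0.0307. Leaving out CC_s 2, CC_s 3 or CCC 1 gave adjusted p of 0.0694 to 0.157. At Il1r1 the mean of CC_s was above those of the other controls, 150.8 ppm in C, 138.5 ppm in CC_l and 138.8 ppm in CCC. H had 108.4 ppm. Traf1, an adaptor of the TNF receptors, was called lower as well, by 0.69 (SE 0.17) on the log2 scale, adjusted p = 0.0477. It had 34.1 to 39.4 ppm in HC against 60.3 to 70.0 ppm in CC_s, and 27.1 to 49.2 ppm in HHC against 57.3 to 60.7 ppm in CCC. Without HC 3 and HHC 3 the difference was -0.73, adjusted p = 0.0415. Leaving out CC_s 2, CC_s 3, HC 1, HC 2, HC 3, CCC 1, CCC 2 or HHC 2 gave adjusted p of 0.0538 to 0.169. Csf1, the growth factor of macrophages, had the third smallest p, with a log2 difference of -0.51 (SE 0.20), adjusted p = 0.167. Under the diet these 3 loci were lower as well and uncalled in limma. The log2 differences were -0.41 for Il1r1, -0.45 for Traf1 and -0.66 for Csf1, with adjusted p of 0.300, 0.142 and 0.0661.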

How the data were processed

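ATAC-seq peaks of 22 libraries in 8 groups were used as the authors deposited them. The authors trimmed reads with Trim Galore 0.6.6, aligned them to mm10 (GRCm38) with Bowtie2 2.4.4, handled the alignments with SAMtools 1.13 and bedtools 2.30 and called peaks in each library with SEACR 1.3, stringent, at a threshold of 0.01. Each deposited peak carries its total signal, the coverage summed over its bases, and its maximum signal. Normalization of this signal is not given in the sources used here, depth is unknown, and so no counting interval can be given. The methods state a blacklist filter, and whether it came before deposit is not stated. Mitochondrial peaks were left out.

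Peaks of all libraries were merged into regions, and the summed signal was mapped by rank to a common log2 scale, with a floor below the lowest shared rank. Locus signal was the part of each peak within the gene span and 20 kb on each side, by length, in ppm of the library's summed signal, as log2(value + 1), which understates changes at low loci. Groups were compared with limma 3.58.1 (R 4.3.3) with a trend and Benjamini-Hochberg adjustment over all regions, loci or promoters. Calls needed an adjusted p under 0.05 and, for regions and promoters, an absolute log2 difference above 1. Covered length was tested by exact permutation within durations. The share of all regions, loci or promoters whose groups do not overlap was not counted. The tests were checked on simulated data. Tables were handled in Python 3.11.15 with pandas 2.3.3. Each sample is an individual animal, and what a shared replicate number marks is not given in the sources used here. Correlations of their deviations ran from -0.16 to 0.21 in the 4 diet and weight loss pairs and from 0.30 to 0.40 between CC_s and C, where every pair was above 0.1, and a fit with the number as a block also called 0 members there.

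The members, the gene lists and the tests were chosen with earlier results of these data known. All 9 members are described, with the region over each promoter, any region called and, where none was called, the member region with the smallest p. From the pathway list the 3 genes with the smallest locus p in each contrast over both durations are named. The tests of a difference between durations, the windows at Icam1 and Rel, the looser kappaB form and the fits without HC 3 and HHC 3 for regions and pathway genes were added once the data were known. Alternatives covered the scaling, the filter, the locus width, the peaks used and each left-out library.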

Additional observations from a re-analysis of the deposited data

How the results depend on the processing

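In H against C, the 2 member regions called became 1 with no filter on low values, 1 with the 30000 strongest peaks, 1 where peaks had to cover 50% of a region and 0 with the maximum signal, and 0 to 3 as each library was left out. The 2 loci called became 1 without the trend, 1 with the 30000 strongest peaks, 1 with 5 kb on each side, and 0 with all 22 libraries in 1 fit, with the maximum signal and with the gene span only, and 0 to 1 as each library was left out. With the replicate number as a block, 3 regions and 0 loci were called in H against C, and no other count of member calls moved. Over both durations of obesity, the 1 region called became 0 with the maximum signal, with ppm scaling and at 50% covered, and 0 to 1 as each library was left out, while 0 loci called became 2 with the 30000 strongest peaks, 2 with quantile mapping and 1 with 50 kb on each side. The 3 members with an exact p under 0.05 for covered length under obesity became 2 to 5 as each library was left out. The cause of these moves was not tested.

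Locus differences that changed sign were all uncalled. Under obesity, Nfkbia became -0.20 with the maximum signal and -0.0548 with whole peaks, and Nfkbiz became 0.0219 with the replicate block, 0.0474 with the 30000 strongest peaks and 0.12 with quantile mapping, and ran from -0.0569 to 0.0651 as each library was left out. After weight loss without HC 3 and HHC 3, Nfkb2 became 0.14, Rel 0.31, Relb 0.0162, Nfkbia 0.071 and Tnfaip3 0.23. With quantile mapping Nfkb2 became 0.15, Rel 0.0851, Rela 0.0117, Relb 0.0294, Nfkbia 0.15 and Tnfaip3 0.0261. With 5 kb on each side Nfkb2 became 0.10 and Rel 0.13, with the gene span only Rel became 0.10 and Nfkbia 0.0761, with the 30000 strongest peaks Rel became 0.0632, and with the replicate block Rel became 0.0134. Nfkbiz became -0.39 with the maximum signal and -0.0192 with 50 kb on each side. As each library was left out, Nfkb2 ran from -0.16 to 0.0517, Rel from -0.25 to 0.15, Nfkbia from -0.23 to 0.0542 and Tnfaip3 from -0.39 to 0.15. Of the counts of member calls and their alternatives, 211 stayed within 1.5 times and 17 did not under other settings, and 168 stayed and 16 did not with a library left out. Over all loci, 1950 were called in H against C, and 336 with all 22 libraries in 1 fit.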
